A study of Mus musculus with 6 samples.

Results

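Transcripts of 10 mouse genes that make glutathione or remove superoxide and peroxides were compared between immature and mature oocytes. The genes were Gclc, Gclm, Gss, Gsr, Prdx1, Prdx2, Prdx3, Txn1, Sod1 and Sod2. Every probe set (a group of short array probes summarised to 1 value) that the array annotation paired with exactly 1 of these symbols was taken, which gave 15 of the 21646 probe sets tested and 9 of the 10 genes. The 5 probe sets of Prdx1 were each paired with Gm21399 as well, which RefSeq lists as a pseudogene, so no value is given for Prdx1. The rule uses gene names and no measured value.

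Oocytes came from mice aged 22 to 24 days that had received 5 IU of equine chorionic gonadotropin (eCG), a hormone that stimulates follicle growth. The GV group held 3 samples of fully grown oocytes with an intact germinal vesicle, the nucleus of the immature oocyte, taken from large antral follicles 44 to 46 h after eCG. The MII group held 3 samples of mature oocytes that showed the first polar body, from mice given eCG and then 5 IU of human chorionic gonadotropin (hCG) and collected from the oviducts 14 h after hCG. Each sample pooled 300 oocytes, 10 ng of its total RNA was amplified over 2 rounds, and 1 array was hybridised per sample. Cumulus cells, the somatic cells around the oocyte, were stripped with a fine pipette from GV oocytes and with hyaluronidase from MII oocytes. The same collection medium, with 5 µM milrinone to hold GV oocytes in arrest, was used for both stages. The series' design text calls the samples of a stage biological replicates.

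Glutathione is a tripeptide of glutamate, cysteine and glycine. Glutamate-cysteine ligase, made of the catalytic subunit Gclc and the modifier subunit Gclm, joins the first pair of amino acids, and glutathione synthetase (Gss) adds glycine. Glutathione reductase (Gsr) returns oxidised glutathione to its reduced form with NADPH. Superoxide dismutases turn superoxide into hydrogen peroxide, and peroxiredoxins reduce that peroxide and are themselves reduced by thioredoxin. Mouse oocytes are known to build up glutathione while they mature, and the egg's store is used after fertilisation in unpacking the sperm nucleus. Fully grown oocytes make almost no new transcripts as they mature, so levels there are known to be set mainly by the keeping or loss of stored mRNA.

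Many genes of this defence are known targets of the transcription factor Nrf2 (Nfe2l2), which binds the antioxidant response element. RefSeq promoter windows (GRCm38.p6), from 250 bases before to 50 bases after a gene's start, existed for 8 of the 10 genes. The core letters TGACNNNGC, searched on both strands, were in 3 of these 8 windows and in 12.4% of all 32841 windows of that length. The 3 stretches are shown because they are the places in these genes' windows that hold the core. All 3 lie on the + strand of the chromosome as printed 5′ to 3′, and the capitals mark the core, which is on the opposite strand and so reads as GCNNNGTCA.
Gclm, chr3:122245413-122245441: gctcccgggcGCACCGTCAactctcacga
Prdx1, chr4:116685456-116685484: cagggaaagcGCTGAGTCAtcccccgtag
Sod1, chr16:90220696-90220724: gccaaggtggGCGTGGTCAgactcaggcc
Counted from the start site of its window, the core spans bases -134 to -126 in Gclm, -133 to -125 in Prdx1 and -56 to -48 in Sod1. The Gclm window was built on a start site 70 bases inside the gene as RefSeq's gene table gives it, and from that table's start the Gclm core spans bases -64 to -56. No match was found in the windows of Gss, Prdx2, Prdx3, Txn1 and Sod2. A match is a description of letters and does not show binding.

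Values are log2 expression values as deposited, and a difference is always MII minus GV. Differences are given with the standard error (SE) of limma, a linear model fitted over all probe sets, and p-values are 2-sided and adjusted by the Benjamini-Hochberg method over all 21646. A probe set was called at an adjusted p below 0.05. Across probe sets, the correlation between arrays within a stage ran from 0.988 to 0.991, and no array stood apart by this measure. Names that end in _s_at or _x_at mark probe sets whose probes may match other transcripts. The array medians lay at 6.10 to 6.12 in GV and 5.47 to 5.49 in MII. The scale between the stages is therefore not settled by the data. Directions were also read after 4 other scalings: equal array medians, quantile normalization, equal hybridization controls and equal poly-A controls. Hybridization controls are features for labelled RNA meant to be added before hybridisation. Poly-A controls are features for foreign RNA meant to be added before labelling, and whether it was added to these samples was not stated. Equal array medians moved the median difference of all probe sets from -0.15 to 0.47, and equal poly-A controls moved it to -1.02. Directions that turned under a scaling are given for the members and for 19 other genes read this way. The poly-A controls averaged 4.28 to 4.71 in GV and 5.14 to 5.43 in MII, below each array's own median. That scaling therefore rests on dim features. The hybridization controls averaged 8.94 to 9.82 in GV and 9.42 to 9.86 in MII, so equalising them moves arrays of 1 stage against each other. Because a fixed mass of RNA was amplified, fewer mRNA molecules per oocyte and a smaller share of the mRNA cannot be told apart. Stage also goes with hCG treatment, collection from the oviduct and hyaluronidase, and these cannot be separated from it here.

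The signals of the bright Sod1 probe sets and of both Prdx2 probe sets were lower in MII than in GV, and that of Txn1 was higher on the deposited scale. On that scale, 7 of the 15 probe sets were called lower in MII, 2 were called higher and 6 were not called. Over all probe sets tested, 34.1% were called lower and 10.9% higher. The median difference was -0.17 for the 15 and -0.15 for all. In 9 of the 15 all values of one stage lay above all of the other, against 54% of all probe sets. Taking each gene by its brightest probe set, 4 of 9 genes were lower (Prdx2, Sod1, Gss and Gclm), 1 was higher (Txn1) and 4 were not called, beside 37.8% lower and 10.5% higher among 11429 genes. These counts are a description and were not tested against those of the array. The split depends on the scale: 7 members were called higher and 4 lower with equal array medians, 7 and 5 with quantile normalization, 0 and 6 with equal hybridization controls, and 0 and 13 with equal poly-A controls. Lower calls made up 75.8% of all calls over the array on the deposited scale, and 26.4%, 38.9%, 98.6% and 99.6% in the same order. Of the 15, 4 were called lower under all 5 scalings (2 of Sod1, 1 of Prdx2 and Gss), and 0 were called higher under all 5.

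**Figure D1:**
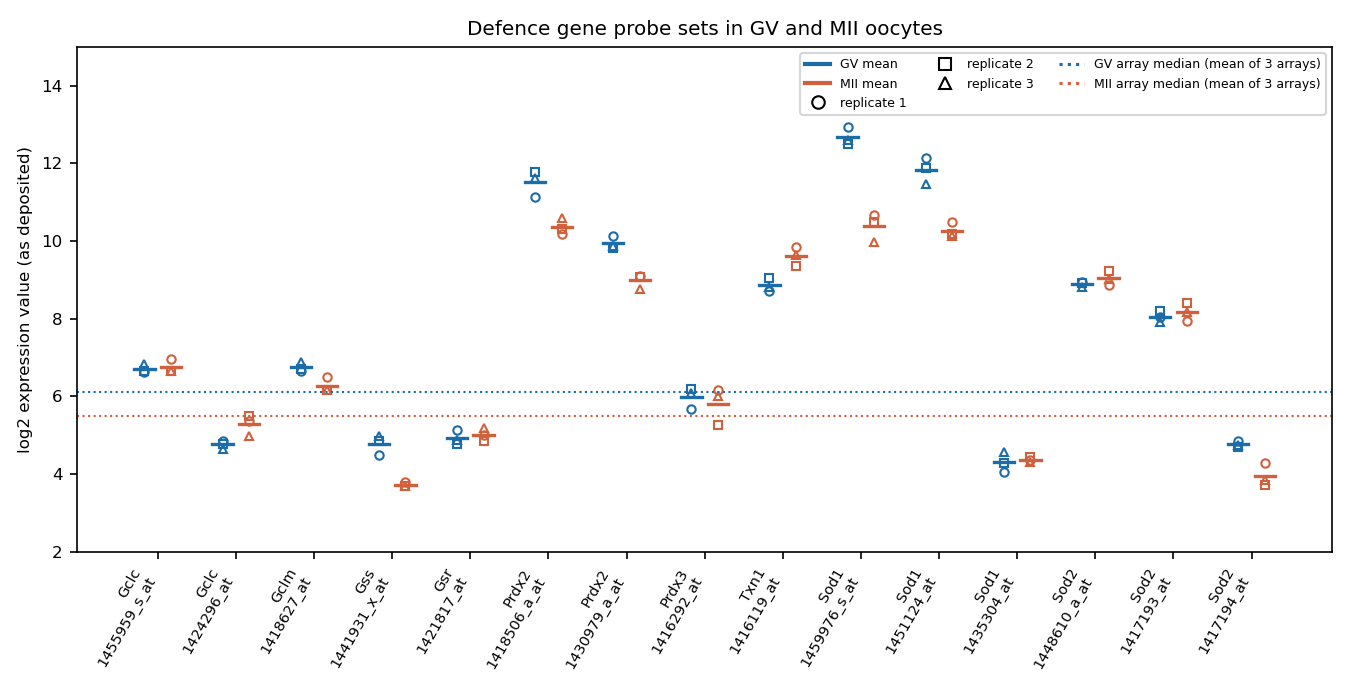
Deposited log2 expression value of each of the 15 probe sets in the 3 GV and 3 MII arrays; points are arrays and bars are stage means. The first Sod1 probe set goes from 12.49 to 12.93 in GV to 9.98 to 10.68 in MII, while Txn1 goes from 8.71 to 9.06 to 9.35 to 9.85.

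The labelled cell type was checked with marker genes. Of 15 oocyte markers 13 were measured, and all 13 had a mean over both stages above the median of all probe sets, with 9 called lower and 1 higher. In MII, Khdc3 and Figla were below the array median in 3 arrays and Ddx4 in 1. The 13 markers' summed level was 15.22 to 15.33 in GV and 14.69 to 14.71 in MII. Of 18 granulosa and cumulus markers 10 were measured, 2 had a mean above the median, and 3 were called lower (Fshr, Inhba and Nr5a2); their summed level was 8.86 to 9.04 in GV and 8.19 to 8.50 in MII. Of the blood cell markers 2 of 6 were measured and of the theca, stroma and endothelium markers 2 of 7, and none of these was called, with summed levels of 4.70 to 4.91 and 5.13 to 5.35 in GV and 4.68 to 4.78 and 5.16 to 5.37 in MII. For the oviduct epithelium 3 of 5 were measured, Krt8 was called lower, and the sum was 5.55 to 5.71 in GV and 4.94 to 5.34 in MII. No marker is at 0, because the lowest value on any array is 1.85. The summed granulosa and cumulus level was lower in MII, as were Sod1, Prdx2 and Gss, and its part in those results was not tested.

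The genes of glutathione synthesis differed in their calls on the deposited scale, and the changes of different genes were not tested against each other. Gclc, the catalytic subunit, was measured by a pair of probe sets. The brighter, 1455959_s_at, read 6.63, 6.65 and 6.83 in the GV arrays and 6.96, 6.66 and 6.64 in the MII arrays. The stages overlapped throughout, and the difference of 0.05 ± 0.15 was not called by limma (95% confidence interval -0.28 to 0.38, adjusted p = 0.81). It was called higher with equal array medians (0.68) and quantile normalization (0.71) and lower with equal poly-A controls (-0.82), and was -0.35 and not called with equal hybridization controls. The dimmer, 1424296_at, read 4.84, 4.78 and 4.66 in GV and 5.35, 5.51 and 4.96 in MII. All MII arrays were above all GV arrays, by 0.52 ± 0.17 or 1.43-fold, and limma called it higher (adjusted p = 0.028). It was below the array's median in 3 GV and 2 MII arrays, its difference turned to -0.36 with equal poly-A controls, and leaving out 1 array at a time kept the call in 2 of 6 fits, the losses being those without GV 2, GV 3, MII 1 and MII 2 (adjusted p up to 0.11). The changes of the 2 Gclc probe sets were not shown to differ from each other by limma (0.46 ± 0.21, 95% confidence interval -0.01 to 0.94, adjusted p = 0.11).

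Gclm, the modifier subunit that raises the ligase's efficiency, was read by 1418627_at at 6.65, 6.71 and 6.88 in GV and 6.49, 6.17 and 6.17 in MII. The stages did not overlap, with MII replicate 1 nearest to the GV arrays. The level fell by 0.47 on the log2 scale (SE 0.15), or was 1.39-fold lower, and limma called it (adjusted p = 0.026). That direction held with equal poly-A controls (-1.34, called) and hybridization controls (-0.88, not called) but turned to 0.15 with equal array medians and 0.19 with quantile normalization, neither called. The call was kept in 2 of 6 fits with 1 array left out and was lost without GV 2, GV 3, MII 2 or MII 3 (adjusted p up to 0.087).

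Gss, which completes glutathione, had 1 probe set, 1441931_x_at, at 4.49, 4.86 and 4.98 in GV and 3.78, 3.68 and 3.68 in MII. All MII arrays were below all GV arrays and close to each other. Gss was 2.09-fold lower in MII (-1.06 ± 0.16, limma adjusted p = 0.00031) and was called lower under all 5 scalings (-1.94 to -0.44). Each of its values was below its array's median.

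Gsr, which regenerates reduced glutathione, was dim as well, at 5.14, 4.77 and 4.88 in GV and 5.00, 4.85 and 5.19 in MII (1421817_at). The stages overlapped and the difference of 0.08 ± 0.16 was not called by limma (95% confidence interval -0.27 to 0.43, adjusted p = 0.71). Gsr was called higher with equal array medians (0.71) and quantile normalization (0.59) and lower with equal poly-A controls (-0.79), and was -0.32 and not called with equal hybridization controls.

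Of the peroxiredoxins, Prdx2, found mainly in the cytosol, fell in both of its probe sets. Probe set 1418506_a_at read 11.13, 11.79 and 11.64 in GV and 10.17, 10.31 and 10.59 in MII, a 2.24-fold lower level (-1.16 ± 0.19, limma adjusted p = 0.00072). Probe set 1430979_a_at read 10.13, 9.83 and 9.88 in GV and 9.10, 9.09 and 8.77 in MII, 1.95-fold lower (-0.96 ± 0.15, limma adjusted p = 0.00053). In both, every MII array was below every GV array. The changes of the probe sets differed by 0.20 ± 0.30 (95% confidence interval -0.47 to 0.87, limma adjusted p = 0.63). The first was called lower under all 5 scalings, and the second under 4, with -0.34 (adjusted p = 0.068, limma) when array medians were made equal.

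Prdx3, the peroxiredoxin of the mitochondrial matrix, read 5.68, 6.18 and 6.08 in GV and 6.17, 5.25 and 6.02 in MII (1416292_at). Only MII replicate 2 was below the GV range, and the 2 other MII arrays lay inside it. The difference of -0.17 ± 0.24 was not called by limma (95% confidence interval -0.71 to 0.37, adjusted p = 0.61). Without MII replicate 2 it was 0.11. It was 0.45 with equal array medians and 0.46 with quantile normalization, neither called, and was called lower with equal poly-A controls (-1.04).

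Txn1 encodes cytosolic thioredoxin, which passes electrons to peroxiredoxins. Its probe set 1416119_at read 8.71, 9.06 and 8.81 in GV and 9.85, 9.35 and 9.65 in MII. Every MII array was above every GV array, by 0.75 ± 0.17 or 1.69-fold (limma adjusted p = 0.0045). The call was kept in all 6 fits with 1 array left out (0.64 to 0.89). It was called higher under 3 of 5 scalings; with equal hybridization controls it was 0.35 and not called, and with equal poly-A controls it was -0.12. The difference between Txn1 and the brightest Sod1 probe set within an array does not depend on such a shift. Txn1 minus Sod1 was -4.22, -3.43 and -3.79 in GV and -0.83, -1.14 and -0.33 in MII, so the stages did not overlap and the distance changed by 3.04. This pair was chosen after its values were seen, and it shows unequal change only, not the level of either gene against the other.

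Sod1, the copper-zinc superoxide dismutase of the cytosol, had the largest fall of the 15 probe sets on the deposited scale. Probe set 1459976_s_at read 12.93, 12.49 and 12.60 in GV and 10.68, 10.49 and 9.98 in MII. The level was 4.89-fold lower in MII (-2.29 ± 0.20, limma adjusted p = 7.0e-06). Its GV values stood near the top of the array's range, 13.3. Probe set 1451124_at read 12.15, 11.87 and 11.46 in GV and 10.50, 10.18 and 10.12 in MII, 2.95-fold lower (-1.56 ± 0.19, limma adjusted p = 8.4e-05). In both, all MII arrays were below all GV arrays, and both were called lower under all 5 scalings (-3.16 to -1.67 and -2.44 to -0.94). The third, 1435304_at, was dim at 4.04, 4.28 and 4.57 in GV and 4.35, 4.45 and 4.32 in MII. Those values were below the array medians and overlapped, and limma did not call the difference of 0.07 ± 0.16 (adjusted p = 0.75). It too was called higher with equal array medians (0.70) and quantile normalization (0.45) and lower with equal poly-A controls (-0.80), and was -0.33 with equal hybridization controls.

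Sod2, the manganese superoxide dismutase of mitochondria, was not called in its brighter probe sets on the deposited scale. Probe set 1448610_a_at read 8.93, 8.92 and 8.83 in GV and 8.86, 9.22 and 9.03 in MII, with a difference of 0.14 ± 0.14 (95% confidence interval -0.18 to 0.46, limma adjusted p = 0.45). Probe set 1417193_at read 8.04, 8.19 and 7.92 in GV and 7.94, 8.40 and 8.18 in MII, with 0.13 ± 0.16 (95% confidence interval -0.23 to 0.48, limma adjusted p = 0.56). The stages overlapped in both. Both were called higher with equal array medians (0.77 and 0.75) and quantile normalization (0.62 and 0.70), were called lower with equal poly-A controls (-0.73 and -0.75), and were -0.26 and -0.28, not called, with equal hybridization controls. The dim 1417194_at read 4.84, 4.69 and 4.75 in GV and 4.29, 3.70 and 3.83 in MII, without overlap, and was called 1.76-fold lower (-0.82 ± 0.17, limma adjusted p = 0.0030), under 3 of 5 scalings. All its values were below the array medians.

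**Figure D2:**
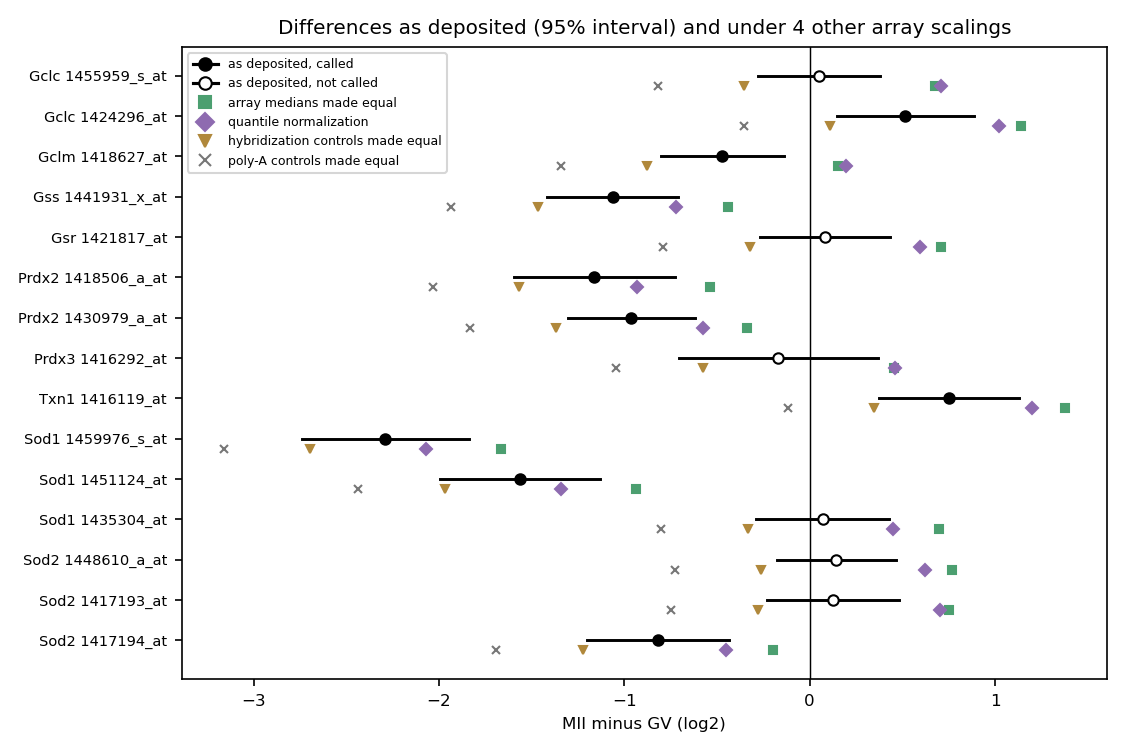
Difference between stages (MII minus GV, log2) of each probe set with its 95% confidence interval from limma, beside its value under the 4 other scalings. The bright Sod1 and Prdx2 probe sets and Gss stay below 0 under all scalings shown, while Txn1 runs from -0.12 upward.

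Probe sets of one gene can be set against each other within an array, which removes any shift between arrays. Among 6 such pairs in 4 genes, each another probe set minus the gene's brightest, 3 changed unequally by limma, beside 42.6% of 7649 pairs on the array. In Sod1, 1451124_at fell less than 1459976_s_at, by 0.73 ± 0.21 (adjusted p = 0.022), and the call was lost without GV replicate 3 (0.58, adjusted p = 0.074) or MII replicate 3 (0.60, adjusted p = 0.076). The dim Sod1 probe set, which was not called itself, rose relative to 1459976_s_at by 2.36 ± 0.27 (adjusted p = 0.00014, limma). In Sod2, the dim 1417194_at fell relative to 1448610_a_at by 0.96 on the log2 scale (SE 0.25, limma adjusted p = 0.013), while 1417193_at moved with 1448610_a_at to within 0.02 (95% confidence interval -0.39 to 0.36). The 2 large discrepancies each rest on a probe set below the array medians.

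**Figure D3:**
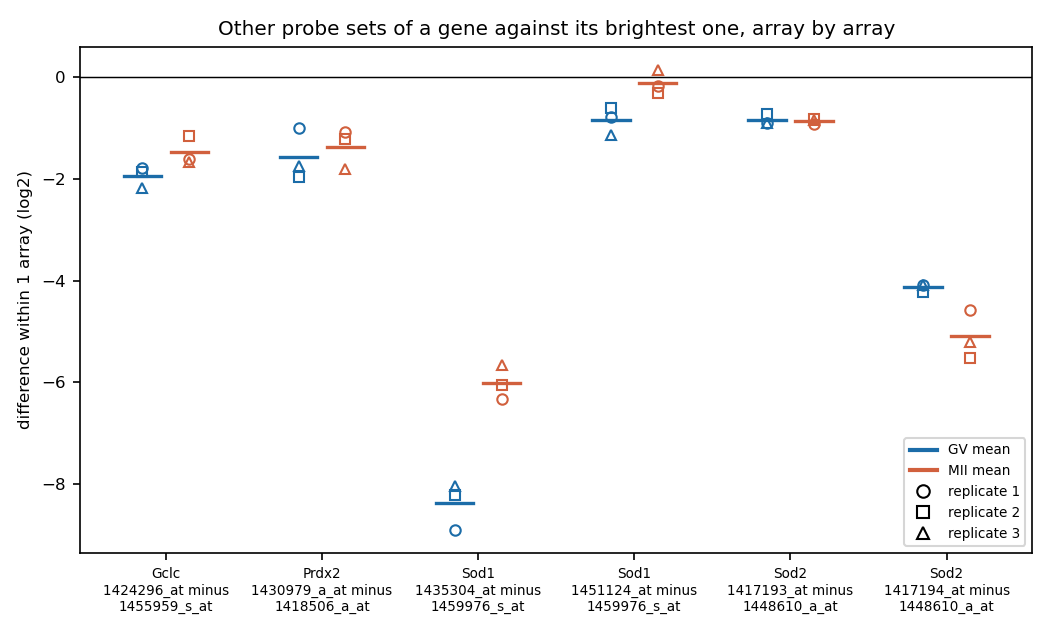
Value of each other probe set minus that of the gene's brightest within the same array, by stage, for the 6 pairs of Gclc, Prdx2, Sod1 and Sod2. The Sod1 pairs, the dim Sod2 pair and the Gclc pair separate by stage, though the Gclc change was not called, and the bright Sod2 pair and the Prdx2 pair overlap.

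A missed call does not show that a level was kept, so each probe set with a mean above the median (5.85) was also tested by limma for lying within set bounds on the deposited scale. Within 1.5-fold, 0 of the 10 such members were called after adjustment, as were 0% of 10823 probe sets, and 3 members and 3108 probe sets had an unadjusted p below 0.05. Within the wider bounds of 2-fold, 5 members were called, against 53.8% of those probe sets. They were Gclc 1455959_s_at (adjusted p = 0.00077), the brighter pair of Sod2 (0.00080 and 0.00098), Gclm (0.0069) and Prdx3 (0.0080). Gclm is in this set as well as among the falls, since its fall is smaller than 2-fold. Txn1, by contrast, was not called within 2-fold (adjusted p = 0.15). The 2-fold calls were read on the deposited scale only and depend on it. With equal poly-A controls the differences of Gclm (-1.34) and Prdx3 (-1.04) were larger than 2-fold. Those of the other members called within 2-fold stayed between -0.82 and 0.77 under every scaling.

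Other genes of glutathione and peroxide handling were read the same way, from a list of 86 chosen by function. Of these, 58 had a probe set with 1 symbol and 28, G6pdx among them, were not analysed here. By their brightest probe set 8 were called higher and 21 lower, with 29 not called and a median of -0.27, beside 10.5% higher and 37.8% lower and a median of -0.20 over all 11429 genes. The counts by role that follow stand beside those same shares and describe the roles only. With equal array medians 28 were higher and 14 lower, with quantile normalization 21 and 15, with equal hybridization controls 0 and 22, and with equal poly-A controls 0 and 48. Of the rises, Gpx3, Sesn3, Mgst3, Hagh, Nadk, Mafg and Nfe2l2 were each called under 3 of 5 scalings. Gene by gene, the scalings were read for only 19 of the 58 genes, in most cases those with the largest called change of a role. Among these 19, the 8 falls Abcc1, Ccs, Glrx5, Gpx4, Gsta4, Park7, Prdx4 and Txnrd3 were called under all 5. Me1 was called lower under 3. The remaining falls, the rise of Gstz1 and the other probe sets of wider-list genes were not read this way.

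Among 4 measured glutathione peroxidases, Gpx4, which reduces lipid peroxides, fell from 6.92, 7.10 and 6.90 in GV to 5.86, 5.77 and 5.84 in MII (-1.15 ± 0.13, limma adjusted p = 4.9e-05). Its other probe set gave -1.49. Gpx3, the secreted form, rose from 6.92, 6.51 and 6.72 to 7.48, 7.51 and 7.67 (0.84 ± 0.15, limma adjusted p = 0.0012), and was -0.034 with equal poly-A controls. For neither gene did the stages overlap.

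Of 4 other peroxiredoxins, sulfiredoxin and sestrins, Prdx4, the peroxiredoxin of the endoplasmic reticulum, was lower by -1.31 ± 0.13 (limma adjusted p = 1.3e-05) at levels below the median. Sesn3 was called higher by its brightest probe set (0.69 ± 0.14, limma adjusted p = 0.0026), while its other probe set was called lower at -2.11 and the first was -0.19 with equal poly-A controls, so the gene has no single direction here. Thioredoxin reductases keep thioredoxin reduced. Txnrd3 fell from 9.87, 8.94 and 8.89 in GV to 6.86, 6.67 and 6.13 in MII (-2.68 ± 0.28, limma adjusted p = 2.2e-05), with -1.42 and -1.67 in its other probe sets. It was the 1 of 6 thioredoxin partners that was called. Txnrd1, the cytosolic reductase, gave -0.32 ± 0.14 and was not called by limma (adjusted p = 0.087), and its dim other probe set gave 0.39. The first was 0.30 with equal array medians and 0.25 with quantile normalization, neither called, and was called lower with equal poly-A controls (-1.20).

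Both called glutaredoxins of 4 were lower. Glrx5, a mitochondrial glutaredoxin of iron-sulfur cluster assembly, went from 11.23, 11.54 and 11.11 to 7.35, 7.92 and 7.64 (-3.66 ± 0.18, limma adjusted p = 1.4e-07), with no overlap. The other, named after its values were seen, was Glrx at -1.62, whose other probe set was called higher at 0.59. Ccs, the copper chaperone that loads Sod1, read 5.66, 5.65 and 5.43 in GV and 3.58, 3.62 and 3.88 in MII (-1.89 ± 0.15, limma adjusted p = 2.8e-06), below the array medians at both stages. The bright Sod1 probe sets and this chaperone were lower in every MII array than in any GV array, beside 54% of all probe sets without overlap in either direction. A link between the genes was not tested. Catalase (Cat) lay near the bottom of the range, at 2.18 to 2.85 in GV and 2.43 to 2.47 in MII, and was not called by limma (-0.03 ± 0.18, adjusted p = 0.91). It was called higher with equal array medians (0.59) and lower with equal poly-A controls (-0.90), and was 0.043 with quantile normalization.

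Glutathione transferases, which join glutathione to other molecules, had 7 lower and 2 higher of 14 and a median of -0.55, against -0.20 over all genes. Gsta4, which acts on products of lipid peroxidation, fell from 9.34, 9.97 and 9.51 to 4.97, 5.40 and 5.20 (-4.41 ± 0.19, limma adjusted p = 6.3e-08). Mgst3, a microsomal member, rose from 7.34, 7.61 and 7.17 to 8.13, 8.50 and 8.63 (1.05 ± 0.18, limma adjusted p = 0.00079). The stages were apart in both. The second rise, Gstz1 at 0.75, was named after its value was seen and was not read under the other scalings.

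In cysteine supply, glutathione turnover and the glyoxalase pathway, 4 of 10 were lower and 1 was higher. Abcc1, an exporter of glutathione and its conjugates, gave -3.00 ± 0.18 (limma adjusted p = 4.9e-07) by its brightest probe set and -0.07 by a dim one. Slc7a11, the cystine transporter subunit, was lower at -1.42 and its other probe set gave 0.55; it was named after its values were seen. Hagh, the second glyoxalase, was called higher by its brightest probe set (0.99 ± 0.14, limma adjusted p = 0.00020) and lower by its others (-1.90 and -0.83), so its direction depends on the probe set.

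NADPH feeds both Gsr and thioredoxin reductase, and 6 genes of its supply were measured. Nadk, the cytosolic NAD kinase, rose by 0.55 ± 0.14 (limma adjusted p = 0.0097) and was -0.32 with equal poly-A controls. Me1, the cytosolic malic enzyme, fell by 0.54 on the log2 scale (SE 0.14, limma adjusted p = 0.011) and its other probe set gave -2.16; the first was 0.083 with equal array medians and -0.18 with quantile normalization, neither called. The 4 others were not called.

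Among 8 measured regulators and targets of the Nrf2 pathway, 2 were higher and 3 lower. Nfe2l2 itself read 6.26, 6.08 and 6.10 in GV and 6.63, 6.57 and 6.37 in MII, with 0.38 ± 0.14 and an adjusted p of 0.04997 by limma. Its call was kept in 1 of 6 fits with 1 array left out, and was lost by limma without variance moderation (adjusted p = 0.053), with trended robust moderation (0.079), with a replicate block (0.063) and without _s_at, _x_at and _a_at probe sets (0.052). It was called higher with equal array medians (1.00) and quantile normalization (1.02), but was -0.027 with equal hybridization controls and -0.49 with equal poly-A controls. Mafg, a small Maf partner of Nrf2, was higher by 0.70 ± 0.15 (limma adjusted p = 0.0034) and by 0.85 in its other probe set, and the first was -0.17 with equal poly-A controls. Keap1, which targets Nrf2 for degradation, gave -0.26 ± 0.13 and was not called by limma (adjusted p = 0.13). Keap1 was called higher with equal array medians (0.36) and quantile normalization (0.41) and lower with equal poly-A controls (-1.14). Park7, which is protective in oxidative stress, fell from 8.39, 9.23 and 8.79 to 5.48, 5.49 and 5.72 (-3.24 ± 0.21, limma adjusted p = 6.7e-07) and its other probe set gave -3.76.

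**Figure D4:**
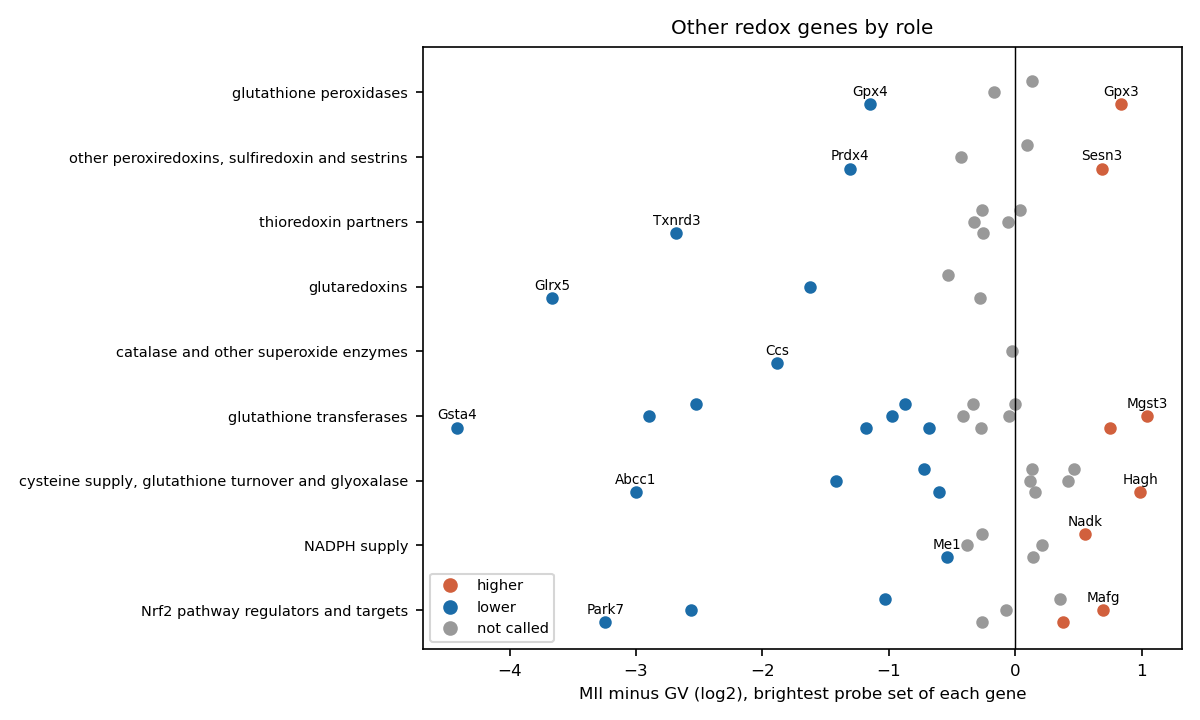
Difference between stages (MII minus GV, log2) of the 58 measured genes of the wider list by role, 1 point per gene by its brightest probe set, with the vertical offset within a role only for legibility. Falls reach -4.41 for Gsta4 and rises reach 1.05 for Mgst3.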

How the data were processed

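Affymetrix expression arrays of 3 GV and 3 MII oocyte samples were used. The authors deposited log2 values per probe set; RMA and the R package affy are named in the submitters' processing notes, without version or settings. The 6 arrays hold the same 7077 distinct values. For other steps and the genome build, nothing was stated in the labels. After 56 control features were set aside, 21646 probe sets were tested without a filter with lmFit and eBayes of limma 3.58.1, under R 4.3.3 (stage only, Benjamini-Hochberg over all, threshold 0.05). The procedure was also run on simulated data with few changed probe sets and no shift between stages, which cannot speak to the scale. Of the 21646 probe sets 19078 had 1 symbol, 550 several and 2018 none. Number of arrays limits the precision.

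All probe sets of the members are named; in each role of the wider list, the called genes with the largest rise and fall (or the brightest gene) by the brightest probe set, and Gpx4, Txnrd1, Cat, G6pdx, Nfe2l2 and Keap1. Members and lists were chosen with earlier results of these data known. Alternatives were 4 other scalings, no variance moderation, trended robust moderation, filters on dim and on _s_at, _x_at and _a_at probe sets, a replicate block, 2-fold bounds, and each array left out.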

Additional observations from a re-analysis of the deposited data

How the results depend on the processing

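The 2 scalings that pull MII up and the 2 that pull it down moved the counts most. Equal array medians gave 12016 probe sets higher and 4306 lower, 7 and 4 members, and 28 wider-list genes higher. Quantile normalization gave 7538 and 4794, 7 members higher and 21 wider-list genes higher. Equal hybridization controls gave 104 probe sets, 0 members and 0 wider-list genes higher by limma (0 and 0 at an unadjusted p below 0.05). Because those controls also varied within a stage, a difference can be larger under this scaling and still not be called. Gclm was -0.88 and not called there, and -0.47 and called as deposited. Equal poly-A controls gave 65 higher and 18380 lower, 0 members higher and 13 lower, and 0 wider-list genes higher and 48 lower (0 and 0 higher by limma at an unadjusted p below 0.05). The cause was not tested. Directions turned as follows. With equal array medians Prdx3 was 0.45, Gclm 0.15, Cat 0.59, Txnrd1 0.30, Me1 0.083 and Keap1 0.36. With quantile normalization Prdx3 was 0.46, Gclm 0.19, Cat 0.043, Txnrd1 0.25 and Keap1 0.41. With equal hybridization controls Sod2 was -0.28 (1417193_at) and -0.26 (1448610_a_at), Gsr -0.32, Sod1 1435304_at -0.33, Gclc 1455959_s_at -0.35 and Nfe2l2 -0.027. With equal poly-A controls Txn1 was -0.12, Sod2 -0.75 (1417193_at) and -0.73 (1448610_a_at), Gsr -0.79, Gclc -0.36 (1424296_at) and -0.82 (1455959_s_at), Sod1 1435304_at -0.80, Nadk -0.32, Nfe2l2 -0.49, Mafg -0.17, Gpx3 -0.034 and Sesn3 -0.19. Without variance moderation 1279 probe sets and 1 member were higher and 1 probe set pair differed. Over probe sets above the median 4438 were lower, 1 member was higher, 11 wider-list genes were lower and 1 pair differed, since fewer probe sets are tested. Without _s_at, _x_at and _a_at probe sets 4839 were lower, with 3 members. Bounds of 2-fold called 5 members. Leaving out 1 array at a time gave 1547 to 2127 probe sets and 1 to 2 members higher, and ranges across 0 for Sod1 1435304_at (-0.057 to 0.21), Gclc 1455959_s_at (-0.052 to 0.12), Prdx3 (-0.35 to 0.11), Gsr (-0.0081 to 0.19) and Cat (-0.18 to 0.15). A replicate block on the sample numbers gave 2400 probe sets higher and 7300 lower, and 2 and 7 members. The titles number only samples 2 and 3 of each stage, and the unnumbered sample was taken as 1. Deviations from the stage mean correlated by only 0.09, 0.03 and 0.03 between samples of the same number. The highest correlations were between GV 1 and MII 2 (0.17), GV 2 and MII 3 (0.29) and GV 3 and MII 1 (0.18), and the remaining pairs were at -0.28, -0.22 and -0.27. The numbers were thus not shown to mark pairs, and a shared collection day across stages was not tested. Values below the array medians limit Gss, Gsr, Ccs, Prdx4 and the dim probe sets of Gclc, Sod1 and Sod2.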
